A study of Homo sapiens with 6 samples.

Results

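TXNIP, the alpha-arrestins ARRDC1 to ARRDC4 and the glucose-sensing transcription factors MLXIP and MLXIPL were followed in SK-OV3, a line of human ovarian cancer cells, after silencing of the long non-coding RNA PVT1. The genes were taken from the count table by their symbols, 7 of 59653, and the set was drawn up with earlier results of these data known. The comparison asks how the mRNA of these genes differs when PVT1 is reduced. The siControl group received pooled scrambled siRNAs and the siPVT1 group a pool of siRNAs to human PVT1, both from Dharmacon, and RNA was taken 48 h after transfection. All cells were SK-OV3 cells of the genotype labelled wildtype, with 3 libraries in each group. One cell line and 1 siRNA pool were used, so an effect of PVT1 loss and an effect of the pool itself cannot be told apart. The labels do not state that replicates were separate cultures, and p-values then measure only the spread between these libraries.

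Total estimated counts per library lay between 28383171 and 35059576, and 19008 genes passed the filter on low counts. Replicates differed by more than sampling noise: chi-square divided by its degrees of freedom was 1.75 to 5.67 among siControl pairs and 8.62 to 45.3 among siPVT1 pairs. PVT1 itself had normalized counts of 3298, 4090 and 3377 in siControl and of 2350, 2111 and 2062 in siPVT1. It fell by 0.72 on the log2 scale (SE 0.097, edgeR adjusted p = 0.00034), or 1.65-fold. The silenced gene thus stayed short of the log2 fold change of 1 required below for differential expression. A normalized count is the estimated count divided by the library's TMM-scaled size relative to the mean library. All 8 SK-OV3 epithelial and ovarian carcinoma markers were detected, among them KRT8 at a mean of 9636 and PAX8 at 3941, while ERBB2, known to be amplified in this line, had a mean of 1089 with 5645 tested genes above it. EPCAM was low, at mean normalized counts of 96.65 in siControl and 66.55 in siPVT1. MUC16 was uneven, at 179, 581 and 19 counts in siPVT1. KRT8, KRT18, KRT19 and PAX8 rose, KRT7 and ERBB2 fell, and EPCAM and MUC16 did not pass. Of all tested genes 29.5% rose and 28.4% fell. Of 9 leukocyte, endothelial and fibroblast markers, 5 were tested. CD3E was at 0 in every library and PTPRC had at most 2 counts. The summed count of this list was 2164 to 2376 in siControl and 9233 to 10240 in siPVT1. The endothelial cadherin CDH5 gave most of it, at mean normalized counts of 1998 and 9314. PECAM1, VWF, COL1A1 and CDH5 rose and CD14 fell, the last from 10, 6 and 8 counts to 3, 2 and 3, and their part in the results below was not tested. The CD14 call was lost in 5 of the 8 other settings that tested it, namely DESeq2, no filter, the replicate block and the omission of siPVT1 replicate 2 or 3.

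Alpha-arrestins are adaptor proteins that carry receptors and transporters to ubiquitin ligases of the NEDD4 family and so to endocytosis. TXNIP, the best known of them, also binds and inhibits thioredoxin and lowers glucose uptake by promoting internalization of glucose transporters. MLXIP (MondoA) and MLXIPL (ChREBP) pair with MLX, respond to glucose phosphates and bind carbohydrate response elements, and TXNIP and ARRDC4 are among the best known genes that they induce. TXNIP is induced by high glucose in many cell types and often studied as a suppressor of tumour growth.

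All 7 genes had a start in the RefSeq promoter table (GRCh38.p14), with 10 starts among 35116 in all. TXNIP (ENSG00000265972) lies on chr1:145992435-145996579 on the minus strand and ARRDC3 (ENSG00000113369) on chr5:91368631-91383317 on the minus strand. ARRDC4 (ENSG00000140450) lies on chr15:97960703-97973833 on the plus strand. TXNIP and ARRDC3 were chosen because they changed most and in opposite directions, and ARRDC4 as the other well known carbohydrate-responsive arrestin. The 250 bases before the first listed RefSeq start are shown for each. They cover chr1:145996580-145996829, chr5:91383318-91383567 and chr15:97960453-97960702 and read 5′ to 3′ on the strand of the gene. Capitals mark matches to an E box (CACGTG), a direct repeat of E-box-like units as in carbohydrate response elements (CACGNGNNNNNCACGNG), a forkhead core (GTAAACA) and a CCAAT box (CCAAT), searched on both strands. These letters were chosen after the sequences had been seen.
TXNIP promoter: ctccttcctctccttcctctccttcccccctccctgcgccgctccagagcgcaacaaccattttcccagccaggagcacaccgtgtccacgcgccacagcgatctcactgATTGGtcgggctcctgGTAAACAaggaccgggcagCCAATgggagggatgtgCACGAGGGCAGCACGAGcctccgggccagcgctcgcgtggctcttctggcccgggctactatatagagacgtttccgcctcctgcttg
ARRDC3 promoter, first start: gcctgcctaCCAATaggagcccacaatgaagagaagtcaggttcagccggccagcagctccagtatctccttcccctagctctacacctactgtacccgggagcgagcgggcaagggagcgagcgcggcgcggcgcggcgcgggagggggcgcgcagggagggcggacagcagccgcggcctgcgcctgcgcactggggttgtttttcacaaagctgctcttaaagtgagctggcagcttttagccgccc
ARRDC4 promoter: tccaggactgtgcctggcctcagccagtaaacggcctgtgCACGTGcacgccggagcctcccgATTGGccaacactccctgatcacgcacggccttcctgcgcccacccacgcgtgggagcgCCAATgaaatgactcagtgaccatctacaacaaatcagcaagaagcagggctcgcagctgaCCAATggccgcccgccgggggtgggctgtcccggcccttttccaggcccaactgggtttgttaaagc

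Counted from the start site, the TXNIP window held the direct repeat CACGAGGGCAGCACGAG at −88 to −72, a forkhead core at −124 to −118 and CCAAT boxes at −140 to −136 and −105 to −101. The direct repeat was found in 16 of all 35116 windows of 250 bases, or 0.0456%, and at no other start of the 7 genes. An E box can form 1 unit of the direct repeat, but the units in the TXNIP window are not E boxes. ARRDC4 was the only one of the 7 genes with an E box, at −210 to −205, which 6.34% of all windows held. It also had CCAAT boxes at −187 to −183, −128 to −124 and −67 to −63. A forkhead core, found in 2.98% of all windows, was present at −29 to −23 of the second ARRDC3 start as well, on the opposite strand. CCAAT boxes, found in 11240 of all windows, stood in at least 1 window of every gene but MLXIPL. A match is only a run of letters, and the absence of one says nothing of the factor.

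**Figure D1:**
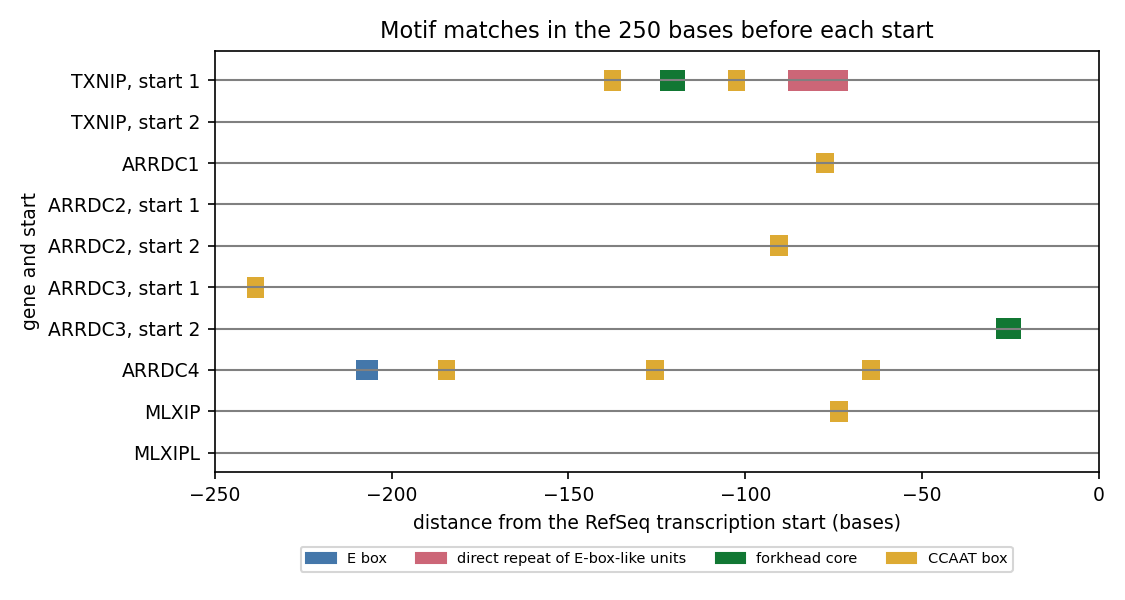
Matches to the E box, the direct repeat, the forkhead core and the CCAAT box (coloured blocks) in the 250 bases before each of the 10 RefSeq starts of the 7 genes, with distance from the start site in bases on the x axis. The direct repeat stands only in the first TXNIP window and the E box only in the ARRDC4 window.

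TXNIP fell and ARRDC3 rose in siPVT1, and these were the 2 of 7 genes past both thresholds for differential expression (Benjamini-Hochberg adjusted p under 0.05 and a log2 fold change of at least 1 in size). Among all 19008 tested genes 21.5% passed both, 11.8% higher and 9.64% lower, and the 2 of 6 tested members are to be read beside that background. On the adjusted p alone ARRDC1, ARRDC2 and ARRDC3 rose, TXNIP and MLXIP fell and ARRDC4 did not pass, against 57.9% of all tested genes in either direction, 29.5% higher and 28.4% lower. MLXIPL was too low to be tested. For 5 of the 6 tested members the groups did not overlap, as for 65.6% of all tested genes. The median log2 fold change of the 6 was 0.04, beside 0.0014 over all tested genes.

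**Figure D2:**
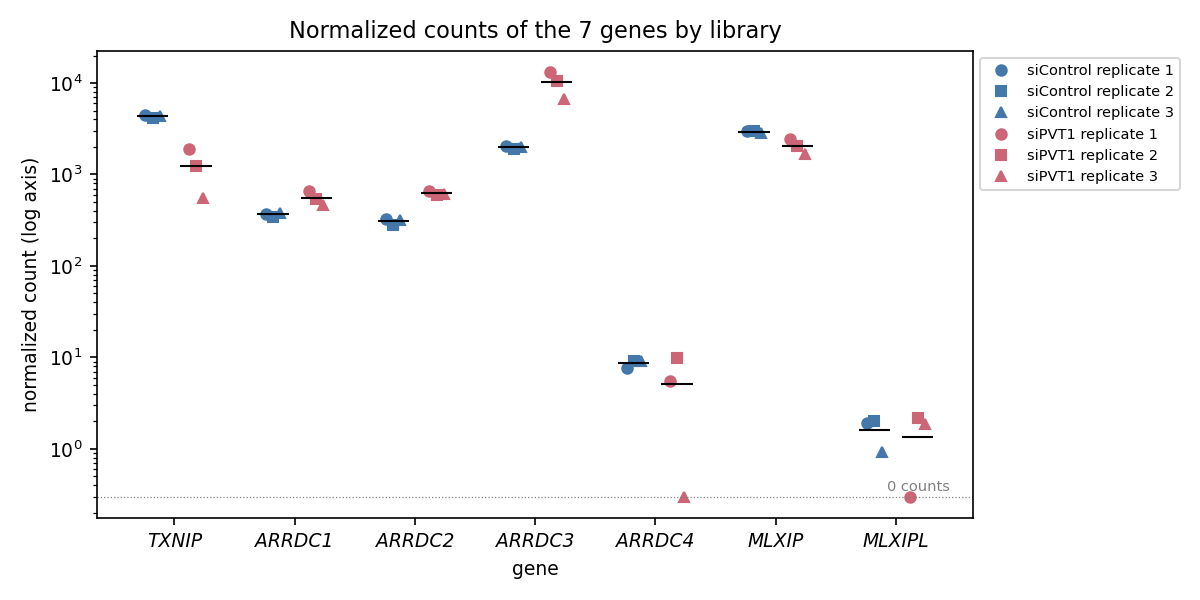
Normalized counts (log axis) of the 7 genes in each library, with siControl in blue, siPVT1 in red, a marker shape for each replicate and a bar at each group mean; counts of 0 are drawn on the dotted line. The siPVT1 points of TXNIP, at 553.4 to 1917, lie below all siControl points, and those of ARRDC3, at 6717 to 13210, lie above them.

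TXNIP had normalized counts of 4468, 4118 and 4406 in the siControl libraries and of 1917, 1229 and 553.4 in the siPVT1 libraries. The groups did not overlap, and siPVT1 replicate 3 was the lowest library of all. The means were 4331 ± 187 and 1233 ± 681.6 (SD, n = 3), a log2 fold change of −1.82 (SE 0.36, edgeR adjusted p = 0.0027), or 3.52-fold lower. The size rested on which siPVT1 library was included: the log2 fold change was −2.30 without replicate 1 and −1.48 without replicate 3, with edgeR adjusted p of 0.00029 and 1.1e-05. Tested against a 2-fold change instead of no change, TXNIP did not pass (edgeR adjusted p = 0.065).

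The siPVT1 libraries were far less alike in TXNIP than the siControl libraries. Its coefficient of variation (SD over mean) came to 4.32% among the siControl and 55.3% among the siPVT1 libraries. Over 8333 genes with a mean normalized count of at least 500 the medians of this measure were 3.59% and 7.87%, and the value of TXNIP exceeded that of 60.0% and 99.9% of these genes.

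ARRDC3, an alpha-arrestin known for its part in the degradation of integrin beta 4 and lost in some breast cancers, moved the other way. Its normalized counts were 2038, 1911 and 1976 in siControl and 13210, 10560 and 6717 in siPVT1. The groups were well apart, with siPVT1 replicate 3 again the lowest of its group. The means were 1975 ± 63.26 and 10160 ± 3265 (SD, n = 3), a log2 fold change of 2.36 (SE 0.22, edgeR adjusted p = 4.5e-05), or 5.14-fold higher. ARRDC3 also passed the test against a 2-fold change (edgeR adjusted p = 0.00096), and its log2 fold change stayed between 2.11 and 2.57 when 1 library was left out. The coefficient of variation of ARRDC3 came to 3.20% among siControl and 32.1% among siPVT1 libraries, the latter above that of 98.5% of the 8333 genes.

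ARRDC2, an alpha-arrestin that links cargo to NEDD4 ligases, rose to just under the fold threshold. It had normalized counts of 329.5, 281.9 and 321.5 in siControl and of 659.3, 590 and 612.6 in siPVT1. Replicates of both groups were close and the groups did not overlap. The log2 fold change was 0.996 (SE 0.093, edgeR adjusted p = 5.0e-05). It crossed the fold threshold when siControl replicate 1, siControl replicate 3 or siPVT1 replicate 2 was left out, at 1.03, 1.02 and 1.02, so its place on either side of that line is not settled by these libraries.

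ARRDC1, which recruits the ESCRT protein TSG101 to the plasma membrane and drives budding of microvesicles, rose by less. Its normalized counts were 373.3, 346.5 and 378.7 in siControl and 659.3, 539.8 and 467.9 in siPVT1. The lowest siPVT1 library was above the highest siControl library. The log2 fold change was 0.60 (SE 0.13, edgeR adjusted p = 0.0041), and it ranged from 0.44 to 0.69 with 1 library left out.

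ARRDC4, the closest relative of TXNIP in its response to glucose, was near the limit of detection. It had 8, 9 and 10 counts in siControl and 5, 9 and 0 counts in siPVT1, and the groups overlapped. Summed over libraries this was 27 counts (95% exact Poisson interval 17.8 to 39.3) and 14 counts (7.65 to 23.5), intervals that cover counting error only. The log2 fold change of −0.79 (SE 0.75) did not pass (edgeR adjusted p = 0.40), and it was −1.71 without siPVT1 replicate 2 and −0.18 without siPVT1 replicate 3. A difference in ARRDC4 was not detectable at this depth.

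MLXIP, which encodes MondoA, fell. It had normalized counts of 2972, 2996 and 2852 in siControl and of 2449, 2029 and 1685 in siPVT1. No siPVT1 library reached the siControl range. The log2 fold change was −0.52 (SE 0.12, edgeR adjusted p = 0.0067), under the fold threshold, and it lay between −0.68 and −0.41 with 1 library left out. MLXIPL, which encodes ChREBP and is best known from liver and fat, had 2, 2 and 1 counts in siControl and 0, 2 and 2 counts in siPVT1. All of its libraries were at or under the floor of 3 counts and no fold is given. The ratio of MLXIPL to MLXIP planned for each library is not given for the same reason.

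**Figure D3:**
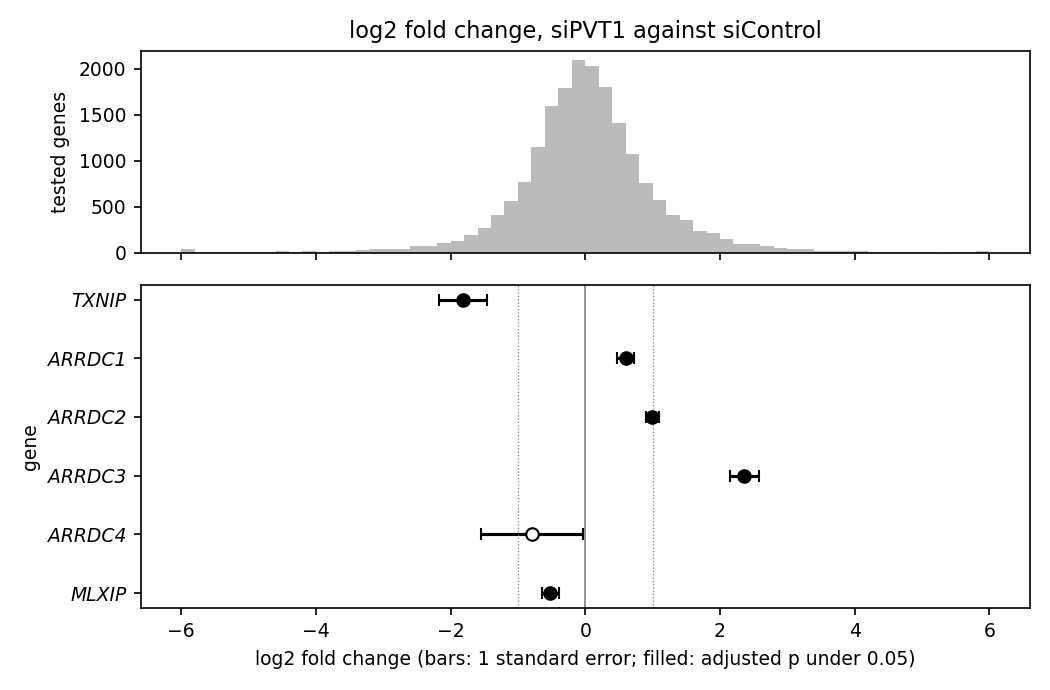
Distribution of the log2 fold change over 19008 tested genes (upper panel, values beyond 6 drawn at the ends) and the log2 fold change of the 6 tested members with bars of 1 SE (lower panel; filled points have an edgeR adjusted p under 0.05, dotted lines mark the fold threshold). TXNIP at −1.82 and ARRDC3 at 2.36 lie beyond the dotted lines, ARRDC2 at 0.996 stands on 1, and the bar of ARRDC4 is the widest of the 6.

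TXNIP fell while ARRDC1, ARRDC2 and ARRDC3 rose, and the balance of TXNIP and the other alpha-arrestins within a library was compared, which does not depend on scaling between libraries. The normalized count of TXNIP was 1.63, 1.62 and 1.64 times the sum of ARRDC1 to ARRDC4 in siControl and 0.132, 0.105 and 0.0710 times in siPVT1. The difference of the log2 ratios was −4.03, or 16.4-fold, with an exact permutation p of 0.1, the smallest that 3 against 3 allows, so this design cannot reach 0.05. The ratio of TXNIP to ARRDC3, added after the data were seen, was 2.19, 2.15 and 2.23 in siControl and 0.145, 0.116 and 0.0824 in siPVT1. Its log2 difference was −4.30 (exact permutation p = 0.1). That p was fixed in advance, because TXNIP fell and ARRDC3 rose without overlap of the groups. ARRDC3 also gave most of the sum of ARRDC1 to ARRDC4, so both ratios measure nearly the same thing. The ratio of TXNIP to ARRDC4 could not be formed in siPVT1 replicate 3, where ARRDC4 had 0 counts. With 1 count added to each gene its log2 difference was −0.76 (two-sided exact permutation p = 0.4).

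Per length of annotated exons, TXNIP was the most abundant of the 7 mRNAs in siControl and ARRDC3 in siPVT1. In CPM, the count scaled to the library's effective size, per kilobase of merged exons (GENCODE v44), the siControl levels were 38.6 ± 1.67 for TXNIP, 12.7 ± 0.41 for ARRDC3, 6.81 for MLXIP, 3.10 for ARRDC1, 2.15 for ARRDC2, 0.0684 for ARRDC4 and 0.0108 for MLXIPL (SD, n = 3). Each of these was above the next in 3 of 3 libraries. In siPVT1 the levels were 65.5 ± 21.0 for ARRDC3 and 10.99 ± 6.08 for TXNIP, and these were apart in 3 of 3 libraries. MLXIP at 4.76, ARRDC1 at 4.71 and ARRDC2 at 4.30 changed places between siPVT1 libraries and their order cannot be told. ARRDC4 at 0.0406 and MLXIPL at 0.00904 came last. With the length of the longest coding transcript in place of merged exons, TXNIP exceeded ARRDC1 in only 2 of 3 siPVT1 libraries.

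TXNIP made up 68.1%, 68.0% and 68.3% of the summed counts per kilobase of the 5 alpha-arrestins in the siControl libraries and 15.2%, 12.5% and 8.74% in the siPVT1 libraries. ARRDC3 made up 22.5%, 22.8% and 22.1% and then 75.7%, 77.6% and 76.7%. The share of ARRDC3 was thus close among the siPVT1 libraries although its own level was not. Because ARRDC3 made up most of the sum there, a close share is partly built into this measure. The summed level of the 5 genes was 58.5, 54.0 and 57.5 CPM per kilobase in siControl and 112.4, 87.7 and 56.4 in siPVT1. Its groups overlapped, since siPVT1 replicate 3 lay inside the siControl range. Lower mRNA in a few cells and in every cell cannot be told apart in such bulk libraries.

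**Figure D4:**
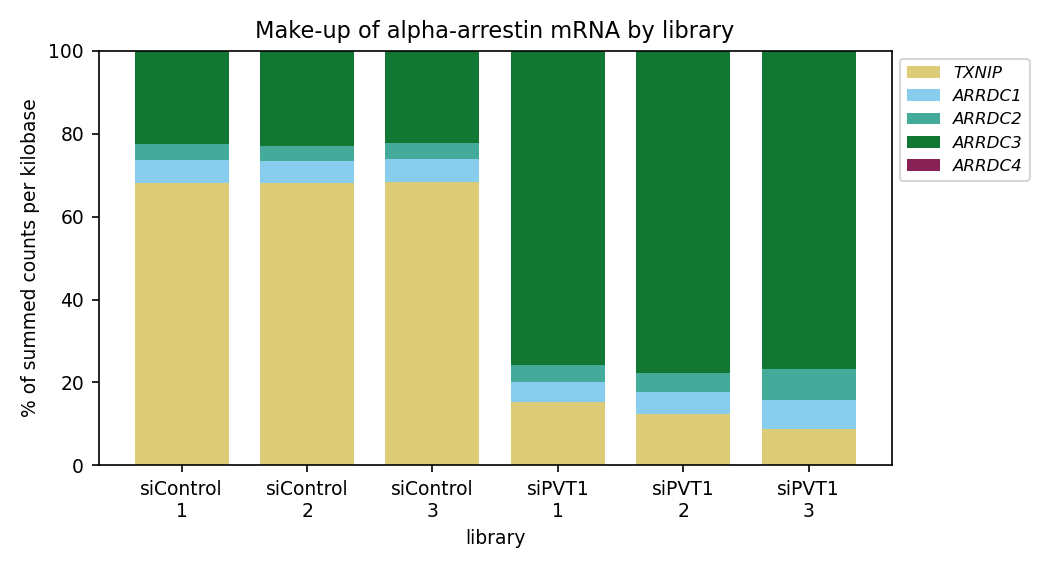
Share of each alpha-arrestin in the summed counts per kilobase of merged exons, in percent, for each of the 6 libraries. TXNIP takes 68.0% to 68.3% of the siControl bars and 8.74% to 15.2% of the siPVT1 bars, ARRDC3 takes 75.7% to 77.6% of the siPVT1 bars, and ARRDC4 is too low to be seen.

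ARRDC1 and ARRDC3 each have an annotated antisense gene that overlaps them, by 35 and 2969 bases of gene span. The strand setting of the counting is not given in the sources used here, so reads of overlapping exons could be assigned to either gene. ARRDC1-AS1 fell, with normalized counts of 401.9, 388.9 and 436.9 in siControl and of 173.7, 224 and 214.2 in siPVT1, a log2 fold change of −1.003 (SE 0.12, edgeR adjusted p = 0.00015). This was opposite to ARRDC1. It stood at the fold threshold and fell short of it without siControl replicate 3 or siPVT1 replicate 1. ARRDC3-AS1 had means of only 28.0 and 22.8 normalized counts, against 1975 and 10160 for ARRDC3, and did not pass (edgeR adjusted p = 0.35).

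The thioredoxin system, whose central protein thioredoxin is inhibited by TXNIP, had 3 of its 5 tested genes lower, none higher and 2 that did not pass, with a median log2 fold change of −0.73. Among all tested genes 28.4% fell and 57.9% moved either way. TXNRD1, the cytosolic thioredoxin reductase, had 74700, 68730 and 74530 normalized counts in siControl and 18780, 23120 and 28310 in siPVT1, a log2 fold change of −1.63 (SE 0.14, edgeR adjusted p = 2.8e-05). Its siPVT1 replicate 1 was the lowest and replicate 3 the highest, the reverse of TXNIP. TXN2 and TXNRD3, the mitochondrial thioredoxin and a reductase best known from testis, fell with log2 fold changes of −0.79 and −0.73. TXN, thioredoxin itself, had means of 9675 and 8512 normalized counts and did not pass (log2 fold change −0.19, edgeR adjusted p = 0.12), but it passed with scaling by the total count and without siPVT1 replicate 3.

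Of the 9 NEDD4-family ubiquitin ligases, the partners that alpha-arrestins bind through their PY motifs, 3 rose, 3 fell and 3 did not pass, with a median log2 fold change of 0.12. That 6 of 9 passed is close to the 57.9% of all tested genes. WWP2 and HECW1 fell past both thresholds, with log2 fold changes of −1.13 and −1.36, and HECW2 fell by 0.69. SMURF2, a ligase that acts on receptors and SMAD proteins of the TGF-beta pathway, had a log2 fold change of 0.95, SMURF1 of 0.34 and ITCH, a ligase reported to ubiquitinate TXNIP, of 0.28. The call for ITCH was lost with scaling by the total count and without siControl replicate 3. NEDD4 and NEDD4L did not pass, at 0.16 and 0.12. Of the 5 tested genes of other arrestin-fold proteins 3 rose and 2 did not pass, beside 29.5% of all tested genes higher and 28.4% lower. Those that rose were the beta-arrestins ARRB1 (0.64) and ARRB2 (1.01) and the retriever subunit VPS26C (0.53). ARRB2 stood on the fold threshold and fell short of it under 6 of the 12 alternative settings. SAG, ARR3 and ARRDC5 were too low to be tested.

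MLX and MAX are the small proteins through which the Mondo, MYC and MXD families bind DNA. Among the 8 genes of MLX, MAX and their partners, 4 rose, 3 fell and 1 did not pass, with a median log2 fold change of 0.45. Of all tested genes 29.5% rose and 28.4% fell, and 57.9% passed in either direction. Past both thresholds were 2 of the 8, beside 21.5% of all tested genes. MXI1, a MAX partner that represses MYC targets, rose most in this list, with normalized counts of 465.7, 444.5 and 451.7 in siControl and of 2884, 2157 and 1393 in siPVT1. Its log2 fold change was 2.24 (SE 0.23, edgeR adjusted p = 9.1e-05), and siPVT1 replicate 3 was again the lowest of its group. MXD3 rose past both thresholds (1.09), though it fell short of the fold threshold with scaling by the total count. MNT (0.79) and MXD4 (0.74) rose by less, and MXD1 (−0.85), MGA (−0.53) and MAX (−0.40) fell. MLX, the shared partner of MLXIP and MLXIPL, did not pass, at means of 2036 and 2279 normalized counts (log2 fold change 0.16, edgeR adjusted p = 0.063). It passed without siPVT1 replicate 3.

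Of 17 genes known as ChREBP or MondoA targets in other tissues, other than TXNIP and ARRDC4, 13 were tested. Of these 9 rose, 3 fell and 1 did not pass, and 4 rose and 1 fell past both thresholds, with a median log2 fold change of 0.59. The shares of all tested genes were 29.5% higher and 28.4% lower on the adjusted p, and 11.8% and 9.64% past both thresholds. The genes that rose past both were KHK (2.01), the ketohexokinase of fructose metabolism, SCD (1.46), the stearoyl-CoA desaturase, the transcriptional repressor HBP1 (1.35) and the lipid droplet protein PNPLA3 (1.28). KHK was low, with 9, 8 and 4 counts in siControl and 26, 28 and 25 in siPVT1. The lipogenic enzymes ELOVL6 (0.92), ACLY (0.82), FASN (0.59), ACACB (0.54) and ACACA (0.48) also rose, the last of these not with scaling by the total count or without siControl replicate 3. KLF10 and the malic enzyme ME1 fell, with log2 fold changes of −0.75 and −0.69. RGS16 had 21, 13 and 24 counts in siControl and 2, 3 and 0 counts in siPVT1. It passed both thresholds as lower, and its fold is not given because siPVT1 lay at the floor. Many of these lipogenic genes are also known targets of SREBP factors, and which factor acts on them was not tested.

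Glucose transporters and hexokinases, which take up and phosphorylate the sugar that MondoA senses, gave 10 tested genes of 13. Of these 7 rose, beside 29.5% of all tested genes, 2 fell, beside 28.4%, and 1 did not pass. Past both thresholds 6 were higher and 1 lower, beside 11.8% and 9.64% of all tested genes, and the median log2 fold change was 1.91. SLC2A1, the basal glucose transporter GLUT1, had 5824, 5824 and 5814 normalized counts in siControl and 33040, 24950 and 20750 in siPVT1, a log2 fold change of 2.17 (SE 0.15, edgeR adjusted p = 1.2e-05). SLC2A3, the high-affinity transporter GLUT3, had 2716, 2671 and 2623 and then 30800, 22750 and 14600, a log2 fold change of 3.09 (SE 0.24, edgeR adjusted p = 2.1e-05). Both had their lowest siPVT1 value in replicate 3, as TXNIP and ARRDC3 did. SLC2A10 (3.03), HK2 (2.10) and SLC2A12 (1.72) rose past both thresholds and HK1 (0.94) on the adjusted p alone. HKDC1 had a log2 fold change of −2.70 and fell from a mean of 253.3 to one of 38.9 normalized counts. SLC2A4, the insulin-responsive transporter, had 1, 0 and 1 counts in siControl and 43, 39 and 44 in siPVT1, and its fold is not given because siControl lay at the floor. SLC2A8 fell by 0.43, a call that was lost with DESeq2 and without siPVT1 replicate 1 or any 1 of the siControl libraries.

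Of 9 cargo proteins and adaptors of alpha-arrestins 5 rose, 1 fell and 3 did not pass, with a median log2 fold change of 0.48. Among all tested genes 29.5% rose and 28.4% fell, and 57.9% passed in either direction. ITGB4, which encodes the integrin that ARRDC3 helps to degrade, had 15.2, 19.2 and 9.24 normalized counts in siControl and 124.7, 79.8 and 31.0 in siPVT1. Its log2 fold change was 2.42 (SE 0.52, edgeR adjusted p = 0.0042) at a low level in both groups. INSR, the insulin receptor, and F2R, the thrombin receptor, also rose past both thresholds (1.87 and 1.51). SLC11A2, an iron transporter, rose by less (0.49). NDFIP2 fell by 0.29, a call lost without siControl replicate 3, and NOTCH1, TSG101 and NDFIP1 did not pass. In all these lists and the antisense pair together, 22 of 61 tested genes were differentially expressed, 16 higher and 6 lower, beside 21.5% of all tested genes. The lists were chosen with earlier results known and were not tested as sets.

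**Figure D5:**
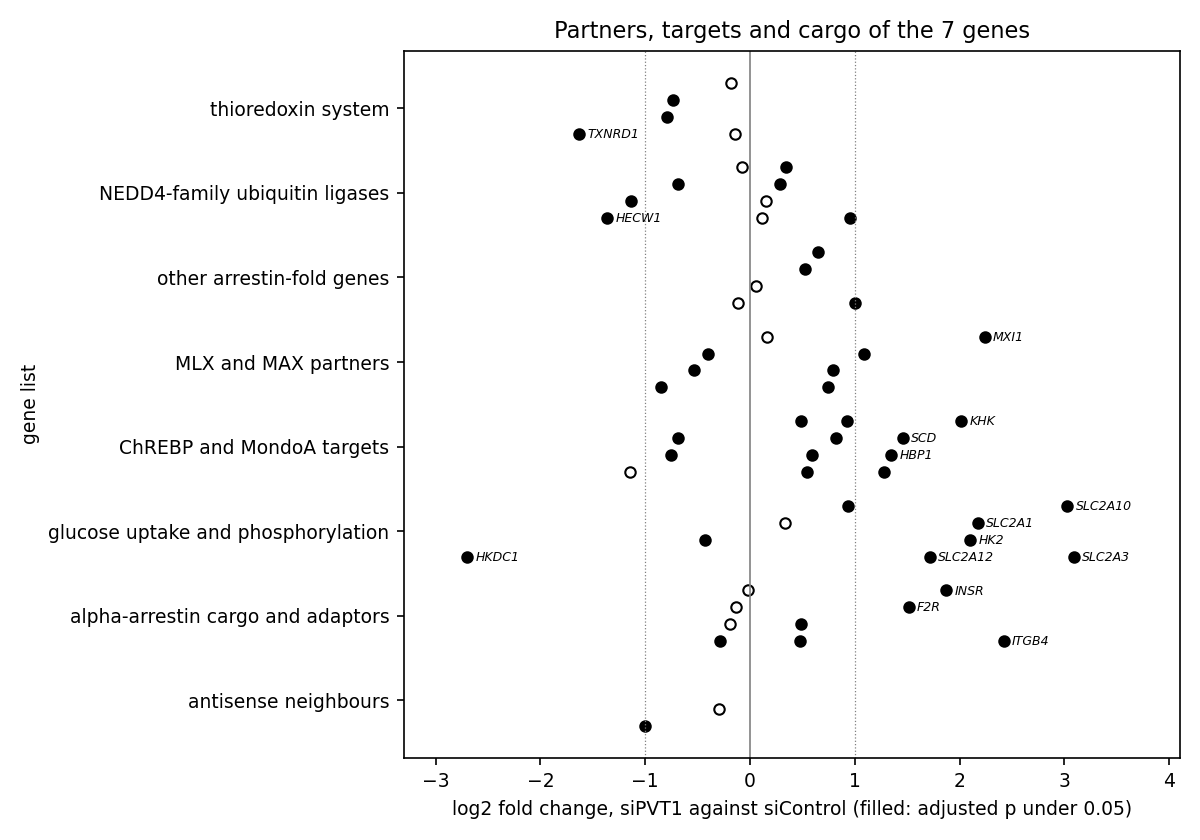
Log2 fold change of each tested gene in 8 lists of partners, targets and cargo of the 7 genes; filled points have an edgeR adjusted p under 0.05, dotted lines mark the fold threshold, and genes beyond 1.3 in size are named. RGS16 and SLC2A4 are left out because 1 group lay at the floor; the glucose transporters and hexokinases reach furthest to the right, up to 3.09 for SLC2A3, with HKDC1 at −2.70 on the left.

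Genes most like each member in profile over the 6 libraries were found by Euclidean distance, among 13268 genes with a mean normalized count of at least 50. The profile was log2 CPM, with 0.5 added to each CPM, centred on the siControl mean. DNAH17 was one of the 2 genes nearest to TXNIP, at a distance of 0.670 beside a median of 3.66 over all genes, and had a log2 fold change of −2.57. ARRDC3 was nearest to STON1 and LRP1, at 0.176 and 0.219 beside a median of 4.06, with log2 fold changes of 2.51 and 2.30. ARRDC2 was nearest to RRAGA and RAB13 (0.0651 and 0.0883) and ARRDC1 to ZCCHC24 and CTSB (0.0971 and 0.102). MLXIP was nearest to HEY1 and CSF1, at 0.0664 and 0.0825. ARRDC4 was nearest to SCNN1A and BCL2L2-PABPN1 (0.213 and 0.215), which did not pass the test either. With 0 to 10 counts per library, however, ARRDC4 stayed below the 0.5 CPM added, and this flattens its profile. Its 2 neighbours, each at a mean of at least 50, had log2 fold changes of −0.33 and −0.28, against −0.79 for ARRDC4. This likeness therefore says little about ARRDC4. No member was among the 2 nearest genes of another member.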

How the data were processed

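The mRNA of SK-OV3 cells was sequenced in 3 siControl and 3 siPVT1 libraries as single-end reads. The values that the authors deposited are estimated counts per gene, given as whole numbers without normalization. They come from Salmon (0.14.1 in the submitters' processing notes) after STAR (2.7.3a), with GENCODE transcripts on GRCh38.p13. The strand setting is not given in the sources used here.

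All 6 columns were matched to their samples by label. The quasi-likelihood test of edgeR 4.0.16 (R 4.3.3), after TMM scaling, was fitted with the siRNA as its single term. Of 59653 genes, 19008 reached 5 normalized counts in 3 or more libraries and were tested, and p-values were adjusted over them by Benjamini-Hochberg. Differential expression required an adjusted p under 0.05 and a change of 1 or more, in either direction, on the log2 scale. "Rose" and "fell" refer to the adjusted p alone. The SE is the size of the log2 fold change over the square root of its F statistic. DESeq2 1.42.0 served as an alternative. The edgeR fit was tested on simulated counts of the 19008 genes and recovered 98% of genes changed by 1.5 on the log2 scale. The simulation gave every gene the same small spread in both groups and changed no gene of very low mean count. It changed 100 genes by 1.5 and 100 by 3 on the log2 scale, whereas 57.9% of tested genes passed the adjusted p in the data. Scaling between libraries with so many changed genes was therefore not tested by it. The simulation does not give the power for genes as variable as TXNIP and ARRDC3 in siPVT1 or as low as ARRDC4. Gene coordinates and lengths are those of GENCODE v44 (GRCh38) and promoters those of RefSeq (GRCh38.p14).

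Named genes were the 7 members, PVT1, all genes of the fixed lists, and the 2 nearest genes of each tested member, of which a few are not reported here. The members and lists were chosen with earlier results of these data known, and so no p is given for a list. The promoter letters and the ratio of TXNIP to ARRDC3 were added after the data were seen. At 28383171 to 35059576 counts per library, counting error weighs most on ARRDC4 and MLXIPL.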

Additional observations from a re-analysis of the deposited data

How the results depend on the processing

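The 5 members called on the adjusted p kept their direction and their side of the adjusted p threshold under DESeq2, DESeq2 size factors, scaling by the total count, no filter on low counts, filterByExpr and every omission of 1 library, and TXNIP and ARRDC3 stayed past both thresholds in each of these. ARRDC4 could not be fitted after filterByExpr, which removes it. Tested against a 2-fold change, 1976 genes and 1 member (ARRDC3) passed in place of 4081 and 2, and PVT1 (−0.72), TXNIP (−1.82), ARRDC1 (0.60), ARRDC2 (0.996) and MLXIP (−0.52) did not. On the adjusted p alone 11007 genes and 5 members passed. Scaling by the total count moved the median change over all genes to a log2 value of −0.15 and the share of higher calls from 55.1% to 43.8% of 4190 calls.

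With 1 library left out, calls ranged from 3507 to 4239 genes, 2 to 3 members and 20 to 22 list genes. The log2 fold changes then ranged from −0.80 to −0.62 for PVT1, −2.30 to −1.48 for TXNIP, 0.44 to 0.69 for ARRDC1, 0.93 to 1.03 for ARRDC2, 2.11 to 2.57 for ARRDC3, −1.71 to −0.18 for ARRDC4 and −0.68 to −0.41 for MLXIP. The log2 difference of the TXNIP ratio ranged from −4.24 to −3.79 against ARRDC1 to ARRDC4 and from −4.48 to −4.08 against ARRDC3. Libraries of the same number had correlations of −0.053, 0.076 and 0.015 between their deviations from the group means, and not every library correlated best with its own number. The labels name no pairing, and with 3 libraries in each group these correlations cannot exclude it. With the replicate block 3924 genes were called, TXNIP had −1.96, and no member call changed. Depth limits ARRDC4 and MLXIPL.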

Other observations

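The siPVT1 libraries held a shared order in several of the genes above. TXNIP, ARRDC1, ARRDC3, MLXIP, MXI1, SLC2A1, SLC2A3, HK2 and KRT19 each had their highest normalized count in siPVT1 replicate 1 and their lowest in siPVT1 replicate 3, whether the gene rose or fell against siControl. TXNRD1, SMURF2, FASN and SCD had the opposite order, with FASN at 8971, 9964 and 12820 and SCD at 28070, 29400 and 34150. PVT1 itself was at 2350, 2111 and 2062 in these libraries. Within this group, the library with the most ARRDC3 also had the most TXNIP. The genes were picked for this order after their values were seen, 3 libraries allow no test of it, and its source was not tested.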
